A study of Homo sapiens with 4 samples.

Results

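The heat shock protein and DNAJ genes were taken as every protein-coding gene of GENCODE v44 on hg38 whose symbol is DNAJA, DNAJB, DNAJC, HSPA, HSPB, HSPD, HSPE or HSPH followed by a number, or HSP90 followed by its subunit letters. This rule, which uses names and no measured value, gave 71 of 20046 protein-coding genes. They comprised 3 HSP90 genes, 12 HSP70 genes (HSPA), 3 genes of the larger HSP110 branch (HSPH1, HSPA4 and HSPA4L), 2 chaperonin genes, 7 small heat shock protein genes (HSPB), and 4 DNAJA, 12 DNAJB and 28 DNAJC genes. The series held 4 samples of OE-19, an established cell line from an adenocarcinoma of the esophagogastric junction, grown in RPMI1640 medium with fetal bovine serum. RNA bound by an antibody against N6-methyladenosine (m6A) was sequenced in 2 samples (m6A IP, replicates 1 and 2), each with its own list of peaks. The other 2 samples were input RNA, replicates 1 and 2, for which no list was analysed here. The labels describe cells fixed with UV light and lysed, whereas the study's methods describe fragmented total RNA, and they do not say whether the replicates came from separate cultures. With 1 group of 2 lists and no control list, the values were described without a statistical test.

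HSP70 proteins bind unfolded stretches of other proteins and release them in cycles driven by ATP. J-domain proteins, the products of the DNAJ genes, deliver clients to HSP70 and start its ATPase, and nucleotide exchange factors such as HSP110 and the BAG proteins let it reset. HSP90 finishes the folding of kinases and receptors, the chaperonin HSPD1 with its lid HSPE1 folds proteins inside mitochondria, and small heat shock proteins hold unfolded clients without ATP. The cytosolic stress-inducible members are transcribed under heat shock factor HSF1, and a separate set serves the endoplasmic reticulum (ER) with HSPA5, the ER form of HSP70. m6A is placed on mRNA by the METTL3 and METTL14 complex, chiefly near stop codons and in long exons, and antibodies to it have also marked heat shock mRNAs in their 5′ UTRs in stressed cells.

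An m6A peak was counted for a gene when its summit lay in any exon of the gene. The sequences around GGAC, a frequent form of the m6A consensus, are shown for the 6 genes with the strongest peaks found in both replicates, taken by the geometric mean fold enrichment of their best pair, to show the sequence under the strongest repeated signal. Each is the 21 bases of hg38 on the strand of the gene, written 5′ to 3′, centred on the GGAC nearest to the summit, with GGAC in capitals.
DNAJB9: gcactgcaGGACtgtcactca
DNAJC16: tattttcaGGACtcaaactac
HSPA13: gtgggtttGGACgtggccttt
DNAJC14: gtcaacttGGACaggcaggct
DNAJC25: ccccgggcGGACgccgcagag
DNAJC21: tgttgtgaGGACacatggcag
These lie at chr7:108573284-108573304 (plus strand), chr1:15568237-15568257 (plus), chr21:14373985-14374005 (minus), chr12:55827905-55827925 (minus), chr9:111631674-111631694 (plus) and chr5:34950746-34950766 (plus). A second set comes from the genes of the heat-inducible list with a peak in both replicates. The HSPA1B line is shown for its place in the 5′ UTR, and HSPA1A, a near copy of HSPA1B, is given below by its coordinates alone.
DNAJA1: gaactggtGGACtttgatcca
DNAJB1: aaacgtggGGACctcattatt
HSPA8: catttgaaGGACctaaattcg
HSPA1B: gttccgaaGGACtgagctctt
Their positions are chr9:33038793-33038813 (plus), chr19:14516015-14516035 (minus), chr11:123057671-123057691 (minus) and chr6:31827862-31827882 (plus).

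GGAC is short and common. Over all exonic summits of protein-coding genes it stood within 50 nt in 49.7% in replicate 1 and 51.7% in replicate 2, on the strand of the gene. Of the chaperone summits, 27 of 57 (47.4%, 95% Wilson interval 35.0 to 60.1) had it in replicate 1 and 27 of 41 (65.9%, 50.5 to 78.4) in replicate 2. Pooled over both lists the shares were 55.1% of 98 chaperone summits and 50.5% of 31950 summits in all. A peak found in both lists is counted once in each, and a summit in exons of several protein-coding genes once for each gene. The chaperone share was thus close to that of all summits in replicate 1 and above it in replicate 2, a difference that was not tested. In 17 of the 33 pairs of peaks described below GGAC lay within that distance of both summits, and in 23 of at least 1. These counts of pairs were not set beside the share over all exonic pairs.

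With every listed peak counted, the share of heat shock protein and DNAJ genes with an m6A peak was close to that of all protein-coding genes. In replicate 1, 33 of 71 had an exonic peak (46.5%, Wilson interval 35.4 to 58.0), where 42.4% of all protein-coding genes had one. In replicate 2 the count was 25 (35.2%, 25.1 to 46.8) against 34.1% of all. In both replicates it was 23 (32.4%, 22.7 to 43.9) against 33.4%, and in each of the 23 a peak of replicate 1 overlapped a peak of replicate 2. Long genes offer more sequence in which a peak can be called, and the members had a median exonic length of 4951 nt, against 4416 nt over all protein-coding genes. Among protein-coding genes of the same exonic length 35.0% had a peak in both lists, which comes to 24.8 of 71 genes, a difference of -2.56 percentage points. With only peaks of a fold enrichment of 5 or more, 7 members had one in both lists and the difference was -10.8 points. A further 10 members had a peak in replicate 1 alone, 2 in replicate 2 alone, and 36 had none. In at least 1 list 35 of 71 had a peak (49.3%), against 43.1% of all protein-coding genes and 45.1% of those of the same exonic length. The intervals cover counting error over genes only.

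The share with a peak was higher among longer chaperone genes, as it was among genes at large. With all protein-coding genes split into 3 classes of equal number by exonic length, 6 of 24 members in the shortest class had a peak in both lists (25%, all genes 16.8%). In the middle class it was 7 of 22 (31.8%, all genes 35.2%), and in the longest 10 of 25 (40%, all genes 48.1%). The members with a peak in both lists had a median exonic length of 5568 nt, and those with none 3474 nt. Expression was not measured in these lists, so a gene that was not transcribed in OE-19 cells and a transcript without m6A cannot be told apart.

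By class, peaks in both lists were found in 6 of 12 HSP70 genes, 2 of 4 DNAJA, 5 of 12 DNAJB and 10 of 28 DNAJC genes. No HSP90, HSP110, chaperonin or small heat shock protein gene had one in both, of 3, 3, 2 and 7 genes. For classes of this size the Wilson intervals are wide, from 25.4 to 74.6% for HSP70 and from 0 to 35.4% for the small heat shock proteins, and differences between classes were not tested. By compartment, 7 of the 10 genes of the ER list had a peak in both lists (70%, 39.7 to 89.2), 3 of 9 of the mitochondrial list (33.3%, 12.1 to 64.6) and 5 of 12 of the heat-inducible list (41.7%, 19.3 to 68.0), where 33.4% of all protein-coding genes had one. The median exonic lengths of these lists were 6060, 7071 and 3759 nt, against 4416 nt over all. These lists were drawn up with earlier results of these data known, and their differences from the share over all genes were not tested.

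**Figure D1:**
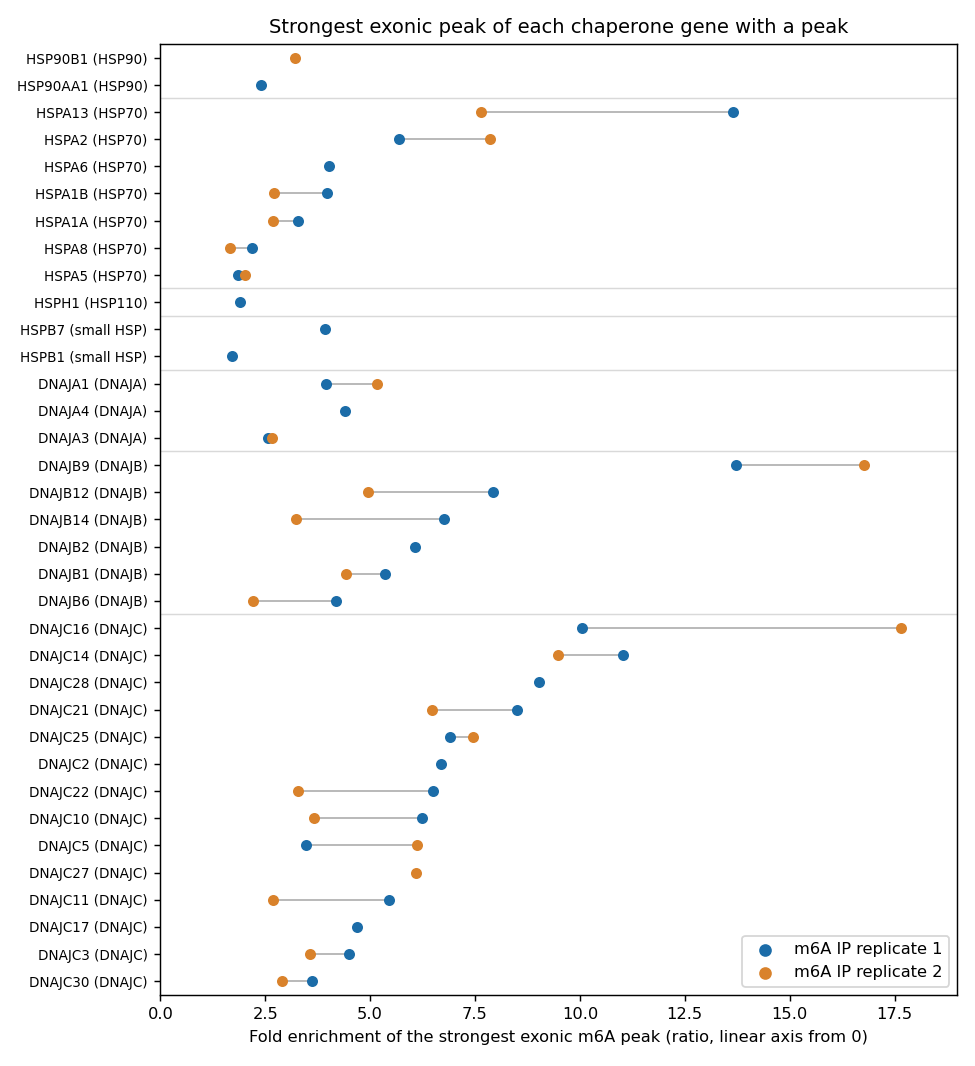
Fold enrichment (horizontal axis, linear, a ratio without unit) of the strongest exonic m6A peak of each of the 35 genes with a peak, grouped by chaperone class, with 1 point for each m6A IP replicate and a grey line joining them where both lists have a peak. DNAJB9, DNAJC16 and HSPA13 reach 13.6 or more in at least 1 replicate, whereas HSPA5 and HSPA8 stay at or below 2.17 in both.

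At the median, the peaks of chaperone genes were lower than those of all genes with peaks, a difference that was not tested. Strength was read as fold enrichment, the ratio of the signal at the summit to the background that the peak caller set there. Over the 23 genes with a peak in both lists, the strongest peak of a gene had a median of 5.44 in replicate 1 and 3.66 in replicate 2, against 7.83 and 5.72 over all 6686 such genes. Of the 33 peaks that paired between the replicates by their overlap, 11 had a geometric mean fold enrichment at or above the median of all 10853 exonic pairs, and 18 lay below their lower quartile of 4.07. The geometric mean had a median of 3.94 and ran from 1.90 to 15.2, where the median over all pairs was 5.63. Peaks were also a little narrower, with a median width of 283 bp in replicate 1 and 308 bp in replicate 2 against 318 and 367 bp.

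Fold enrichment was mostly higher in replicate 1. The log2 ratio of replicate 1 over replicate 2 in the 33 pairs had a median of 0.31, ran from -0.81 to 1.35 and was above 0 in 25, or 75.8%. Over all exonic pairs it had a median of 0.44 and 80.6% were above 0, so the offset was seen over the lists as a whole. Positions repeated closely. The summits of a pair lay a median of 19 bp apart, against 26 bp over all pairs, and within 50 bp in 24 of 33. Of the exonic chaperone peaks, 33 of 57 in replicate 1 (57.9%) and 36 of 41 in replicate 2 (87.8%) overlapped a peak of the other list, against 60.5% and 95.9% over all.

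**Figure D2:**
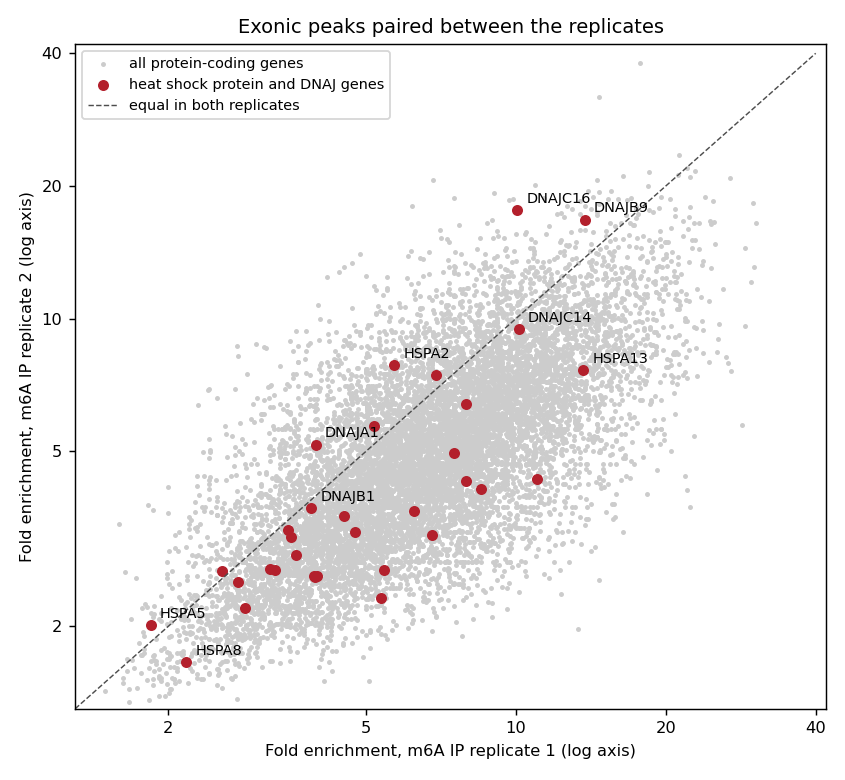
Fold enrichment in m6A IP replicate 1 (horizontal) against replicate 2 (vertical), both on log axes, for each exonic peak found in both lists, with the 33 chaperone peaks in red over all 10853 pairs in grey. DNAJB9 and DNAJC16 stand at the upper end, above the dashed line of equal values, HSPA5 and HSPA8 at the lower end, and 25 of the 33 red points lie below that line.

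The strongest m6A peak of the family was on DNAJB9, which encodes ERdj4, a J-domain partner of HSPA5 that helps to hand misfolded proteins to ER-associated degradation. Its fold enrichment was 13.7 in replicate 1 and 16.8 in replicate 2. The pair stood at percentile 98.7 of all exonic pairs, so it was strong in both lists. DNAJB9 lies at chr7:108569867-108574850 on the plus strand, and the peak spanned chr7:108573058-108573394 in replicate 1 and chr7:108573013-108573386 in replicate 2. Both summits fell in exon 3, the last, 78 and 90 nt before the stop codon and 12 bp from each other. The GGAC printed above sits in the coding sequence 57 nt before the stop codon, 21 and 33 nt from the summits.

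DNAJC16, another J-domain gene (chr1:15526813-15592379, plus strand), had the highest value of any chaperone gene in replicate 2, with fold enrichments of 10.1 in replicate 1 and 17.7 in replicate 2. Its log2 ratio of -0.81 was the lowest of the 33 pairs. Both summits lay in its last exon, exon 15, at 35 and 56 nt before the stop codon. No GGAC lay within 50 nt of either. The nearest one in the peak, printed above, is in the 3′ UTR, 72 nt after the stop codon and 107 and 128 nt from the summits. A separate pair in the 3′ UTR, about as strong in each list, had 5.18 in replicate 1 and 5.69 in replicate 2.

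HSPA13, an atypical member of the HSP70 family found in ER-derived microsomes, had 13.6 in replicate 1 and 7.65 in replicate 2, at percentile 90.4. The gene lies at chr21:14371115-14383484 on the minus strand, and the peaks spanned chr21:14373736-14374264 and chr21:14373740-14374258 within its last exon, exon 5. The summits were 418 and 349 nt upstream of the stop codon, in the coding sequence. GGAC was found 42 nt from the first and 27 nt from the second.

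DNAJC14, whose product assists export of the dopamine D1 receptor from the ER, was marked at a pair of places (chr12:55820960-55830824, minus strand). In coding exon 2 it had a wide peak, chr12:55827493-55828684 in replicate 1 and chr12:55827638-55828699 in replicate 2, with fold enrichments of 10.1 and 9.47. These nearly equal peaks held 16 and 15 copies of GGAC, and the copy printed above was 4 and 17 nt from the summits. The other pair, at 11.0 in replicate 1 and 4.33 in replicate 2, lay in an upstream exon that is 5′ UTR in another transcript of the gene. That exon overlaps TMEM198B, and the lists carry no strand, so the peak cannot be assigned to either gene.

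DNAJC25, a J-domain gene at chr9:111631334-111654351 on the plus strand, had fold enrichments of 6.90 in replicate 1 and 7.46 in replicate 2 in exon 1, with summits 31 bp apart. The 2 peaks, chr9:111631390-111632569 and chr9:111631441-111632420, ran past the end of that exon. GGAC lay 53 nt from the summit of replicate 1 and 22 nt from that of replicate 2. This exon is shared with the read-through gene DNAJC25-GNG10. A further peak in exon 3 was called in replicate 1 alone, at 6.69.

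DNAJC21, which encodes a J-domain protein of ribosome assembly (chr5:34929559-34958964, plus strand), also had a pair of peaks. The stronger by geometric mean, 7.92 in replicate 1 and 6.40 in replicate 2, lay in an exon of a non-coding transcript of the gene, with summits 8 bp apart and the printed GGAC 7 and 15 nt away. The other was at the stop codon in the last exon, exon 13, with 8.50 in replicate 1 and 4.11 in replicate 2 and summits 23 and 20 nt before the stop codon. In replicate 2 alone a peak of 6.48 lay far down the 3′ UTR.

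The inducible cytosolic HSP70 genes HSPA1A and HSPA1B had low, very wide peaks that ran along nearly the whole transcript, except on HSPA1B in replicate 2. HSPA1A (chr6:31815543-31817946, plus strand, 1 exon) had 3.28 in replicate 1 and 2.69 in replicate 2, and the peaks covered 94.1% and 91.8% of it. HSPA1B (chr6:31827738-31830254, plus strand, 1 exon) had 1 peak of 3.98 in replicate 1, chr6:31827788-31830090, which covered 91.5% of the transcript. In replicate 2 it had 2 peaks, chr6:31827802-31828044 at 2.70 and chr6:31828342-31830035 at 2.61, which together covered 77.0%. The coding sequences of these genes, 1923 nt without the stop codon, differ at 4 positions (99.8% identical), so reads from one can align to the other and the values of each copy are uncertain. The 5′ UTRs differ more, with 23 mismatches and 3 gap positions beside 189 identities in a global alignment.

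HSPA1B was the only member with a 5′ UTR summit in both lists on the transcript with the longest coding sequence. The summits were at nt 164 in replicate 1 and nt 150 in replicate 2 of a 5′ UTR of 213 nt. The GGAC printed above is 79 nt before the start codon, 29 and 15 nt from them. In replicate 1 this summit belongs to the peak that spans nearly the whole gene, so only replicate 2 separates the 5′ UTR from the coding sequence. On HSPA1A the summits fell in the coding sequence in both lists, 526 and 751 nt after the first base of the start codon. The GGAC copies nearest to them were at chr6:31816303-31816323 and chr6:31816501-31816521, 30 and 3 nt from the summits.

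Peaks in 5′ UTRs were few in the family, as they were among all protein-coding genes. In replicate 1, 5 of 71 genes had such a summit (7.04%), against 7.05% of all protein-coding genes. In replicate 2 it was 1 gene (1.41%) against 3.08%, and in both lists 1 gene (1.41%) against 2.64%. Beside HSPA1B, the genes in replicate 1 were DNAJC2, which encodes a ribosome-associated J protein, with a fold enrichment of 6.68 at nt 67, DNAJC22 with 6.49 at nt 1118, DNAJB2, a J protein abundant in neurons, with 6.07 at nt 107, and DNAJC14 with 5.95 at nt 125. On this transcript none of these 4 had a 5′ UTR summit in replicate 2. A replicate 2 summit lay in the 5′ UTR of another transcript of DNAJC14, in the exon that overlaps TMEM198B, and cannot be assigned to either gene. The sites of the genes with GGAC near the summit are shown because a 5′ UTR mark is the feature often described for heat shock mRNAs.
DNAJC2: gctggaggGGACcctaagcgc
DNAJB2: ggaggccgGGACtcctggcgg
They lie at chr7:103344676-103344696 on the minus strand, 64 nt before the start codon, and at chr2:219279493-219279513 on the plus strand, 52 nt before it.

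**Figure D3:**
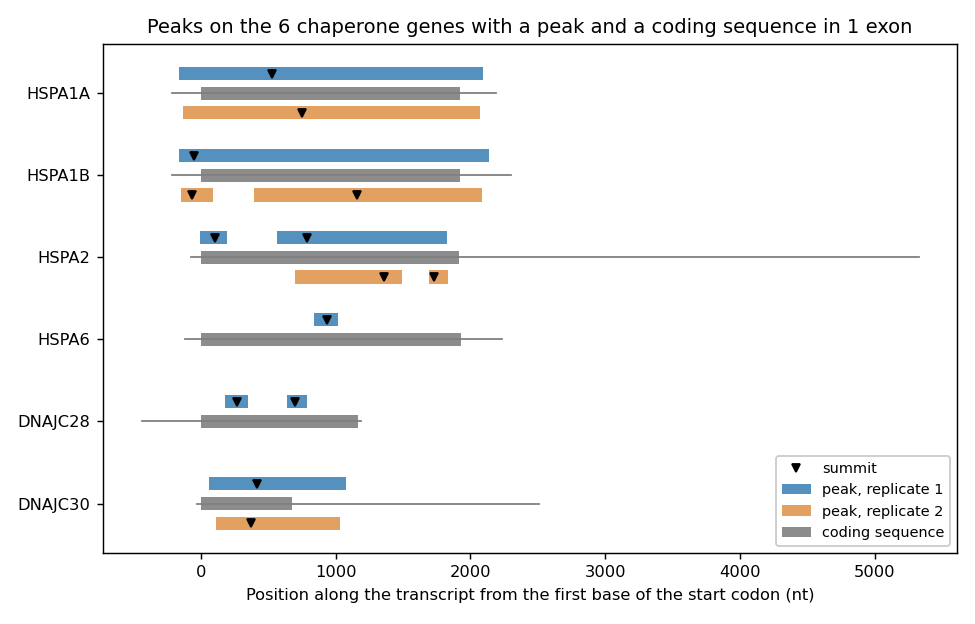
Peaks (coloured bars, replicate 1 above and replicate 2 below each gene) and summits (triangles) along the 6 chaperone genes that have a peak and a coding sequence in 1 exon, with position in nt from the first base of the start codon. On HSPA1A in both replicates and HSPA1B in replicate 1 the bars run over almost the whole transcript, whereas a gap separates the HSPA1B bars of replicate 2. HSPA1B has summits before the start codon in both replicates. On HSPA2 and DNAJC28 the bars cover parts of the coding sequence, and on DNAJC30 most of it and the start of the 3′ UTR.

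The other heat-inducible genes had modest peaks. DNAJB1, the chief heat-induced J protein of the cytosol, which works with HSPA1A and HSPA8, had a pair of peaks in each of its 3 exons (chr19:14514769-14560391, minus strand). At the stop codon in exon 3 they had 3.88 in replicate 1 and 3.70 in replicate 2, with summits 57 and 50 nt before the stop codon. In exon 1 the values were 5.36 and 2.32, and in exon 2 they were 2.76 and 2.53. The 3 pairs ordered differently in the 2 lists, with exon 1 highest in replicate 1 and the stop codon highest in replicate 2, and the peaks together covered 59.3% and 41.7% of the transcript. A peak of 4.43 in replicate 2 alone lay in an exon of a non-coding transcript of the gene.

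DNAJA1, a J protein that serves HSPA8, had 3.96 in replicate 1 and 5.17 in replicate 2 in its last exon (chr9:33025273-33039907, plus strand, exon 9). The summits were 84 and 57 nt before the stop codon, and the printed GGAC lies 14 and 41 nt from them. HSPA8, the constitutive cytosolic HSP70, had the lowest pair of all, 2.17 in replicate 1 and 1.66 in replicate 2, at percentile 0.654 of all pairs. Its summits were 48 and 43 nt after the stop codon (chr11:123057489-123063230, minus strand, exon 9), 5 bp apart, with GGAC 7 and 12 nt away. The position on HSPA8 thus repeated closely although the enrichment was small.

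Among the 12 genes of the heat-inducible list, 9 had a peak in replicate 1, against 42.4% of all protein-coding genes, and 5 in both lists, against 33.4%. The 5 had median fold enrichments of 3.96 in replicate 1 and 2.70 in replicate 2. In replicate 1 alone were HSPA6, the strictly heat-induced HSP70, at 4.01, HSP90AA1, the inducible cytosolic HSP90, at 2.41, HSPH1 of the HSP110 branch at 1.90 and HSPB1 (HSP27) at 1.72. All 4 values were under the median of 4.51 for chaperone peaks in that list. The peaks of HSPA6 and HSPH1 barely passed, with −log10 q of 1.34 and 1.31, in a list whose highest q was 0.0491. The HSPH1 summit lay outside the transcript with the longest coding sequence, in the 5′ UTR of another. HSPD1, HSPE1 and HSPA4L had none in either list.

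The ER genes ranged from the strongest peak to nearly the weakest. Beside DNAJB9 and HSPA13, the membrane-anchored J proteins DNAJB12 and DNAJB14, which act in ER quality control, both had peaks in both lists. DNAJB12 had 3 pairs in its last exon, with 7.92 in replicate 1 and 4.27 in replicate 2, 7.49 and 4.95, and 3.53 and 3.19, from the stop codon outwards. DNAJB14 had 6.76 and 3.23, with summits 39 and 18 nt after the stop codon. In both genes replicate 1 was higher in every pair.

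DNAJC10 (ERdj5), a disulfide reductase of ER-associated degradation, had 6.24 in replicate 1 and 3.66 in replicate 2 in coding exon 3, away from the stop codon. DNAJC3 (p58IPK), an ER co-chaperone and inhibitor of the kinase PERK, had 4.50 and 3.57 in its 3′ UTR. HSPA5 (BiP), the ER form of HSP70, had only 1.84 and 2.01, at percentile 0.719 of all pairs, with summits 82 and 88 nt before the stop codon. HSP90B1 (GRP94), the HSP90 of the ER, had a peak of 3.21 in replicate 2 alone. The ER list therefore held peaks from 1.84 to 13.7 in replicate 1 and from 2.01 to 16.8 in replicate 2, with medians of 6.76 and 3.66 over its 7 genes with both. DNAJB11 and DNAJC1 had no exonic peak.

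Of the 9 mitochondrial chaperone genes, 3 had a peak in both lists. DNAJC11, a protein of the mitochondrial membranes, had pairs of 5.44 in replicate 1 and 2.69 in replicate 2, and of 3.95 and 2.59, in an exon that overlaps THAP3. Without strand in the lists, these pairs cannot be assigned to either gene. DNAJC30, whose coding sequence lies in 1 exon, had 3.61 and 2.91, and DNAJA3 (TID1), the J protein of mitochondrial HSP70, had 2.57 and 2.67, with summits 183 and 169 nt past the stop codon. Over these 3 genes the medians were 3.61 and 2.69. DNAJC28 had a peak of 9.02 in replicate 1 alone, and HSPA9, the mitochondrial HSP70 itself, as well as HSPD1, HSPE1, DNAJC15 and DNAJC19, had none.

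The remaining genes with peaks in both lists have various roles. HSPA2, an HSP70 abundant in the testis, had 5.70 in replicate 1 and 7.85 in replicate 2 in its coding sequence, but with summits 567 bp apart within peaks of 1265 and 793 bp. DNAJC22 had pairs of 4.75 and 3.27 at the stop codon and of 3.92 and 2.60 in the coding sequence. DNAJC5, the cysteine string protein of secretory vesicles, had 3.48 and 3.30 in the 3′ UTR and 3.21 and 2.70 near the stop codon. DNAJB6, which keeps polyglutamine proteins from aggregating, had 2.86 and 2.20 far down its 3′ UTR. Only HSPA2 among these 4 was higher in replicate 2 at a paired peak.

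DNAJC5 had one more signal at which the lists differ in annotation. A peak of 6.12 in replicate 2 had its summit in an exon that is 5′ UTR in another transcript and overlaps MIR941-1. The overlapping peak of replicate 1, at 9.49, had its summit 44 bp away in the intron and so was not counted as exonic.

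The members marked in 1 list ran in their strongest peak from HSPB1 at 1.72 to DNAJC28 at 9.02. In replicate 1 alone they included DNAJA4 at 4.40, HSPB7, a small heat shock protein of heart muscle, at 3.93, and DNAJC17 at 4.68 in an exon that overlaps C15orf62. In replicate 2 alone DNAJC27 had 6.09 with its summit 2 nt past the first base of the stop codon. No exonic peak was found in either list for HSP90AB1, the constitutive cytosolic HSP90, for HSPA4, an exchange factor of HSP70, or for HSPA14, HSPA12A, HSPA12B and HSPA1L. The same was true of the small heat shock protein genes HSPB2, HSPB3, HSPB6, HSPB8 and HSPB9, and of DNAJA2, DNAJB4, DNAJB5, DNAJB7, DNAJB8 and DNAJB13. Among the DNAJC genes 14 of 28 had none, including DNAJC6 (auxilin), which uncoats clathrin vesicles, DNAJC7, which links HSP70 to HSP90, and DNAJC13. Over all protein-coding genes 43.1% had an exonic peak in at least 1 list, so a gene without one was common.

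Many summits of chaperone genes lay near the stop codon or beyond it, and most summits were in the last exon. On the transcript with the longest coding sequence, 14 of 50 summits in replicate 1 (28%) and 16 of 37 in replicate 2 (43.2%, Wilson interval 28.7 to 59.1) were within 200 nt of the stop codon, against 24.4% and 27.1% over all. The rest of the 3′ UTR held 11 (22%) and 8 (21.6%), against 18.0% and 19.7%. The coding sequence held 20 (40%) and 12 (32.4%), against 48.6% and 47.5%, and the 5′ UTR 5 (10%) and 1 (2.70%), against 8.89% and 5.73%. The last exon held 33 of 50 summits (66%, 52.2 to 77.6) and 30 of 37 (81.1%, 65.8 to 90.5), against 50.4% and 59.2%. Summits of the same gene are not independent, which these intervals do not take into account.

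Paired peaks were also placed by exon. Of 31 pairs with both summits on that transcript, 25 had both in the last exon (80.6%, all exonic pairs 59.7%), 3 of them in genes with 1 exon. In genes with several exons it was 22 of 28 (78.6%, all 58.6%), and 2 pairs were in the first exon. The exons that held summits were long, with a median of 1531 nt in replicate 1 and 2517 nt in replicate 2, against 1061 and 1564 nt over all summits.

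**Figure D4:**
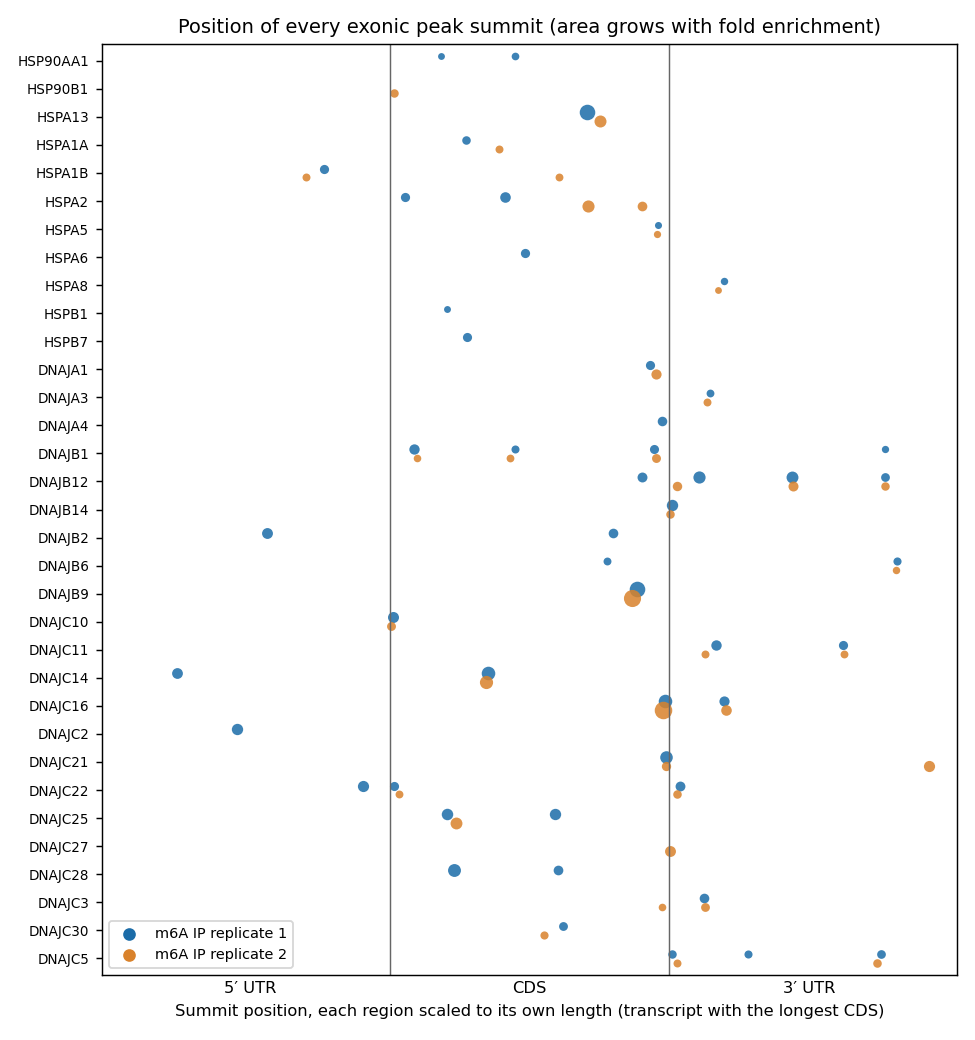
Position of every exonic summit on the transcript with the longest coding sequence, in the 5′ UTR, coding sequence (CDS) and 3′ UTR, each scaled to its own length, with 1 line per gene, colours for the replicates and point area growing with fold enrichment. Many points lie around the stop codon (the right-hand vertical line) or to its right, and 5′ UTR points in both replicates are seen on HSPA1B alone.

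Genes that work with the chaperones were compared through a list of 40, made of heat shock factors, HSP90 cochaperones, exchange factors, chaperonin subunits and related proteins. Of these, 21 had an exonic peak in replicate 1, 13 in replicate 2, 13 in both and 19 in neither. The share in both was 32.5% (20.1 to 48.0), against 33.4% of all protein-coding genes, with 42.4% of all in replicate 1 and 34.1% in replicate 2. Over the 13 genes the strongest peak had medians of 9.82 in replicate 1 and 5.44 in replicate 2, where the chaperone genes had 5.44 and 3.66 and all genes with a peak in both lists 7.83 and 5.72.

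Several exchange factors were among them. BAG4 had 15.5 in replicate 1 and 7.97 in replicate 2 and BAG5 11.9 and 8.67, both genes of the BAG family that releases nucleotide from HSP70. BAG3, the stress-induced member, had 6.42 and 4.78. SIL1, the exchange factor of HSPA5, had 22.0 in replicate 1 and 4.09 in replicate 2, the widest gap between the lists of these genes. GRPEL2, which serves the mitochondrial HSP70, had 10.1 and 7.05 in an exon that overlaps its antisense gene, so without strand this pair cannot be assigned to either.

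Other partners with strong pairs were TRAP1, the mitochondrial HSP90, at 13.2 in replicate 1 and 6.96 in replicate 2 in an exon that overlaps DNASE1, and CLPB, a mitochondrial disaggregase, at 9.82 and 6.72. HSF4, a heat shock factor of the lens, had 5.86 and 5.44, also in an exon shared with an overlapping gene. The summits of TRAP1 and HSF4 lay outside the transcript with the longest coding sequence in both lists. As the lists carry no strand, these pairs of peaks cannot be assigned to either overlapping gene. HSF1, the main factor of the heat shock response, had 5.48 and 3.26. The 9 genes for subunits of the cytosolic chaperonin TRiC (TCP1 and the CCT genes) were singled out after their values were seen. Of these, CCT6B was not in the list of partners. All 9 had no exonic peak in either list, where 42.4% of all protein-coding genes had one in replicate 1 and 34.1% in replicate 2.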

How the data were processed

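m6A immunoprecipitated (IP) RNA of 2 OE-19 samples was analysed from the peak lists, 1 per sample, and groups came from the sample labels. According to the study's methods the authors aligned the reads with TopHat2 and called peaks with MACS2 at default settings, whereas the submitters' processing notes name fastp, HISAT2 and MACS2 with hg38, so the aligner is uncertain. Versions, and whether input served as the control, are not given in the sources used here. For each peak the authors deposited a fold enrichment, which is the ratio of pileup at the summit to what the caller took as background. They also deposited −log10 of the p-value and q-value, and a score derived from q, which was not used. The highest q was 0.0491 and 0.0497, so both lists end near 0.05. The lists hold no counts, so depth is unknown and no interval for a single fold enrichment was given.

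Summits (peak start plus offset) were assigned to exons of GENCODE v44 genes, and every protein-coding gene whose exon held a summit was counted. Regions were read on the transcript with the longest coding sequence, with 200 nt on either side of the stop codon set apart. Peaks of both lists were paired when each was the other's largest overlap, of at least 1 bp. Shares among genes of the same exonic length were means over 20 length classes. GGAC was sought on the strand of the gene in hg38. Wilson 95% intervals cover counting error only. Read-through genes (3) were left out, and DNAJB3, which is not protein-coding in this annotation, is no member. Every member with a peak in both lists is named with values, full accounts are given of the 6 strongest, of 5′ UTR peaks in both lists and of heat-inducible genes with both, and partners are named from a geometric mean of 5, except 1 that is not reported here. The members and lists were chosen with earlier results of these data known. Python 3.11.15, numpy 2.4.6, scipy 1.17.1, pysam 0.24.0, Biopython 1.88 and matplotlib 3.10.9 were used, and the scripts were tested on simulated data. Other thresholds, transcripts, overlaps, windows and single replicates were tried as alternatives.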

Additional observations from a re-analysis of the deposited data

Results flagged for a closer look

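Summits in introns of the chaperone genes were left out of the exonic counts and are given here as a signal outside the main measurement. There were 7 in replicate 1, in 6 genes, with a median fold enrichment of 7.59 (4.29 to 15.5), of which 3 overlapped a peak of the other list. In replicate 2 there were 5, in 5 genes, with a median of 5.61 (4.69 to 9.57), of which 2 did. No input list was analysed, so the level without the antibody was not tested. These counts and medians were not set beside those of all protein-coding genes. Whether they are usual for the lists is therefore not known. The highest intronic peak was in DNAJC25, at chr9:111639960-111640315 in replicate 1, with 15.5, and 9.57 in replicate 2. These values exceed those of its exonic peak in exon 1, at 6.90 and 7.46. In HSPB7, a small heat shock protein gene with an exonic peak in replicate 1 alone, an intronic peak was found in both lists, with 12.7 and 5.61.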

How the results depend on the processing

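The number of members with a peak in both lists fell to 7 when only peaks with a fold enrichment of 5 or more were kept, and ranged from 25 to 33 with each list alone. It was 21 when only summits in exons of 1 gene were kept. A 5′ UTR peak in both lists was found in 1 member, and in 3 with any coding transcript (DNAJB1, DNAJC14 and HSPA1B). The replicate 2 peak of DNAJC14 counted there overlaps TMEM198B and cannot be assigned to either gene. The count was 0 with the peak midpoint in place of the summit and 0 at a fold enrichment of 5 or more. These alternative counts were not set beside the share over all protein-coding genes under the same rule. With each list alone the count ranged from 1 to 5. GGAC lay within 25 nt of 29.6% of member summits, against 29.4% over all summits, and within 100 nt of 75.5%, against 72.3%. Within 50 nt the member share was 47.4% in replicate 1 alone and 65.9% in replicate 2 alone, against 49.7% and 51.7% over all. The difference from genes of the same length changed sign without replicate 2, with values from -0.54 to 2.22 percentage points for each list alone, and widened to -10.8 when only peaks enriched 5 times or more were kept. Of 44 alternatives, 33 stayed within the spread or within 1.5 times, 10 moved further and 1 changed sign. The 33 include the widening to -10.8 points, so the count does not mean that each of these values was stable. The causes of the changes were not tested. No paired analysis was possible because no result comes from a test. HSPA1A and HSPA1B counted as 1 gene, an alternative chosen after seeing the data, gave 22 members with a peak in both lists. Without counts, the depth behind low peaks such as those of HSPA5 and HSPA8 is unknown.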
